A study of Mus musculus with 6 samples.

Results

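The genes described here encode the 4 pore-forming subunits of the AMPA receptor, Gria1 to Gria4, and the 6 TARPs (transmembrane AMPA receptor regulatory proteins), Cacng2, Cacng3, Cacng4, Cacng5, Cacng7 and Cacng8. They were chosen by gene symbol and make up 10 of the 37620 genes in the deposited table. RNA was sequenced from the pre-limbic cortex (PLc), a medial part of the mouse prefrontal cortex, with 1 library for each of 6 male C57Bl/6 mice aged 9 weeks. Mice 3, 5 and 9 received sub-chronic ketamine, an NMDA receptor blocker, at 30 mg/kg into the peritoneum on each of 5 days in a row. Mice 1, 6 and 10 received saline by the same route and schedule. Brains were taken 2 days after the final injection, so the comparison asks which genes differed after the drug had been withdrawn, not under it.

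AMPA receptors are the ion channels that carry most fast excitatory transmission between neurons of the cortex. They are tetramers of the GluA subunits, and a receptor that holds edited GluA2, the product of Gria2, admits little calcium. TARPs bind the receptor, carry it to the cell surface, hold it at the synapse and slow its closing, with the type I members (Cacng2, Cacng3, Cacng4 and Cacng8) acting on trafficking and gating and the type II members (Cacng5 and Cacng7) acting mainly on gating.

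The 4 subunit genes are close copies of each other, and the stretch that codes for the tip of the pore loop shows both how alike they are and where GluA2 is set apart. The windows of 33 bases below are read in the direction of transcription from mm9, and the capitals mark the codon of the glutamine/arginine (Q/R) site. They lie at chr11:57056581-57056613 on the plus strand for Gria1, chr3:80510818-80510850 on the minus strand for Gria2, chrX:38963427-38963459 on the plus strand for Gria3 and chr9:4464122-4464154 on the minus strand for Gria4. Each window is coding and falls inside exon 11 of 16, or exon 12 of 17 in Gria4, of a GENCODE transcript.
Gria1: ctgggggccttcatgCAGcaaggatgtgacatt
Gria2: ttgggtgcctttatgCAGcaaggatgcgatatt
Gria3: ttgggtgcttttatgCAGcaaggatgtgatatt
Gria4: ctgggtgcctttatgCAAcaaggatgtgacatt
All 4 genes code for glutamine at this codon in the genome, and in Gria2 the transcript is edited there to code for arginine. The codon was CAG in Gria1, Gria2 and Gria3 and CAA in Gria4. Of the 33 bases, 26 were the same in all 4 genes. Gria2 and Gria3 were the most alike pair, with 31 bases in common, and Gria1 shared the fewest with Gria2 and with Gria3, at 28 each. Counts per gene carry neither the edited base nor the flip and flop splice forms, so neither was measured here.

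The libraries held between 26273436 and 32643726 reads, and all 10 members had a mean above the minimum of 10 normalized counts that 16127 genes passed. A normalized count is the number of reads of a gene after the library's size factor has been taken out, which multiplied reads by between 0.906 and 1.10. The labelled tissue was present by its markers: Slc17a7, the vesicular glutamate transporter of cortical excitatory neurons, had between 22152 and 49417 normalized counts, Tbr1 between 1955 and 4743 and Cux2 between 1768 and 4319. Markers of other tissue differed between the mice too, and whether such tissue was in the pieces was not tested. Striatal markers were high in ketamine mice 3 and 5, where Ppp1r1b had 12441 and 5942 normalized counts against 1769 to 2133 in the other mice. Of 10 olfactory bulb markers, 7 had every ketamine mouse above every saline mouse. Eomes, which had the largest difference among them, was at 1129 normalized counts in mouse 9, 156 and 77.1 in mice 3 and 5 and at most 14.5 in saline mice. The groups overlapped in Nmb, Th and Pcdh17, and Pcdh17 was lower in mouse 9, at 1450 normalized counts, than in any other mouse. Saline mouse 10 stood apart by its oligodendrocyte genes, whose summed level was 355761 normalized counts against 39760 to 149418 in the other mice. In tissue pieces such as these, fewer cells of a type and less RNA per cell cannot be told apart.

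Expression was compared on log2(normalized count + 1) with limma, two-sided and adjusted over all 16127 genes. Limma called 0 of the 10 members and 0.0% of all genes tested at an adjusted p under 0.05. At an unadjusted p under 0.05 it listed 3 members, Cacng5 and Cacng4 as higher and Cacng2 as lower in ketamine mice, where 5.81% of all genes were listed, 3.44% as higher and 2.37% as lower. On the reads recovered from the table, edgeR's quasi-likelihood test also called 0 members and 0.0% of all genes, in both directions, and listed 6.24% of genes at an unadjusted p under 0.05. DESeq2, the tool of the study's methods, called 2 members, Cacng5 and Cacng4, both higher. It called 1.13% of all genes, 0.899% as higher and 0.229% as lower, and listed 6.54% at an unadjusted p under 0.05. The groups did not overlap in 4 members, of which Cacng4, Cacng5 and Cacng7 had every ketamine mouse above every saline mouse and Cacng2 had every ketamine mouse below. Over all genes tested, 10.3% did not overlap, with 5.69% above and 4.66% below.

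The pore-forming subunits differed little between the groups, and in each of the 4 genes the ketamine and saline mice overlapped. The median log2 fold change over the 4 genes was -0.10, against -0.01 over all genes tested. It was -0.026 without saline mouse 1, -0.22 without saline mouse 10, -0.15 without ketamine mouse 5, -0.20 without saline mouse 10 and ketamine mouse 9 and -0.25 without ketamine mice 3 and 5. All 4 differences were below 0, although that of Gria1 was so near 0 that it turned positive, at 0.01, under upper-quartile scaling.

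Gria1 encodes GluA1, the subunit that is driven into synapses during potentiation. Its level was 11369, 10288 and 15933 normalized counts in saline mice 1, 6 and 10 against 14054, 13277 and 9640 in ketamine mice 3, 5 and 9. The highest and the lowest of the 6 libraries, saline mouse 10 and ketamine mouse 9, set the direction: the log2 fold change was -0.02 (95% confidence interval -0.55 to 0.51) and became 0.34 when both were left out (adjusted p = 0.145, limma). Leaving out the highest saline and the lowest ketamine value was bound to raise the difference.

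Gria2 encodes GluA2 and was the most abundant member per kilobase of exon in every mouse. It had 26392, 25708 and 22084 normalized counts after saline and 21469, 26710 and 22407 after ketamine, in the same order of mice as for Gria1, which holds for all values listed by group here. One ketamine mouse, number 5, lay above all saline mice and another, number 3, below them all. The log2 fold change was -0.07 (95% confidence interval -0.46 to 0.31, adjusted p = 0.999 by limma).

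Gria3 and Gria4 encode GluA3 and GluA4, the latter known from the fast-spiking interneurons of the cortex. Gria3 was at 12360, 11123 and 6324 normalized counts after saline and at 6986, 11064 and 7214 after ketamine. Saline mouse 10 was the lowest of all, and ketamine mouse 5 sat beside saline mouse 6, so that the values split by mouse rather than by treatment. The log2 fold change of Gria3 was -0.21 (95% confidence interval -0.91 to 0.49, exact permutation test, two-sided, p = 0.7). Gria4 was at 4198, 3827 and 2790 normalized counts after saline and at 3226, 3347 and 3219 after ketamine. The ketamine mice lay close together inside the range of the saline mice, with a log2 fold change of -0.12 (95% confidence interval -0.53 to 0.28, exact permutation test, two-sided, p = 0.6).

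**Figure D1:**
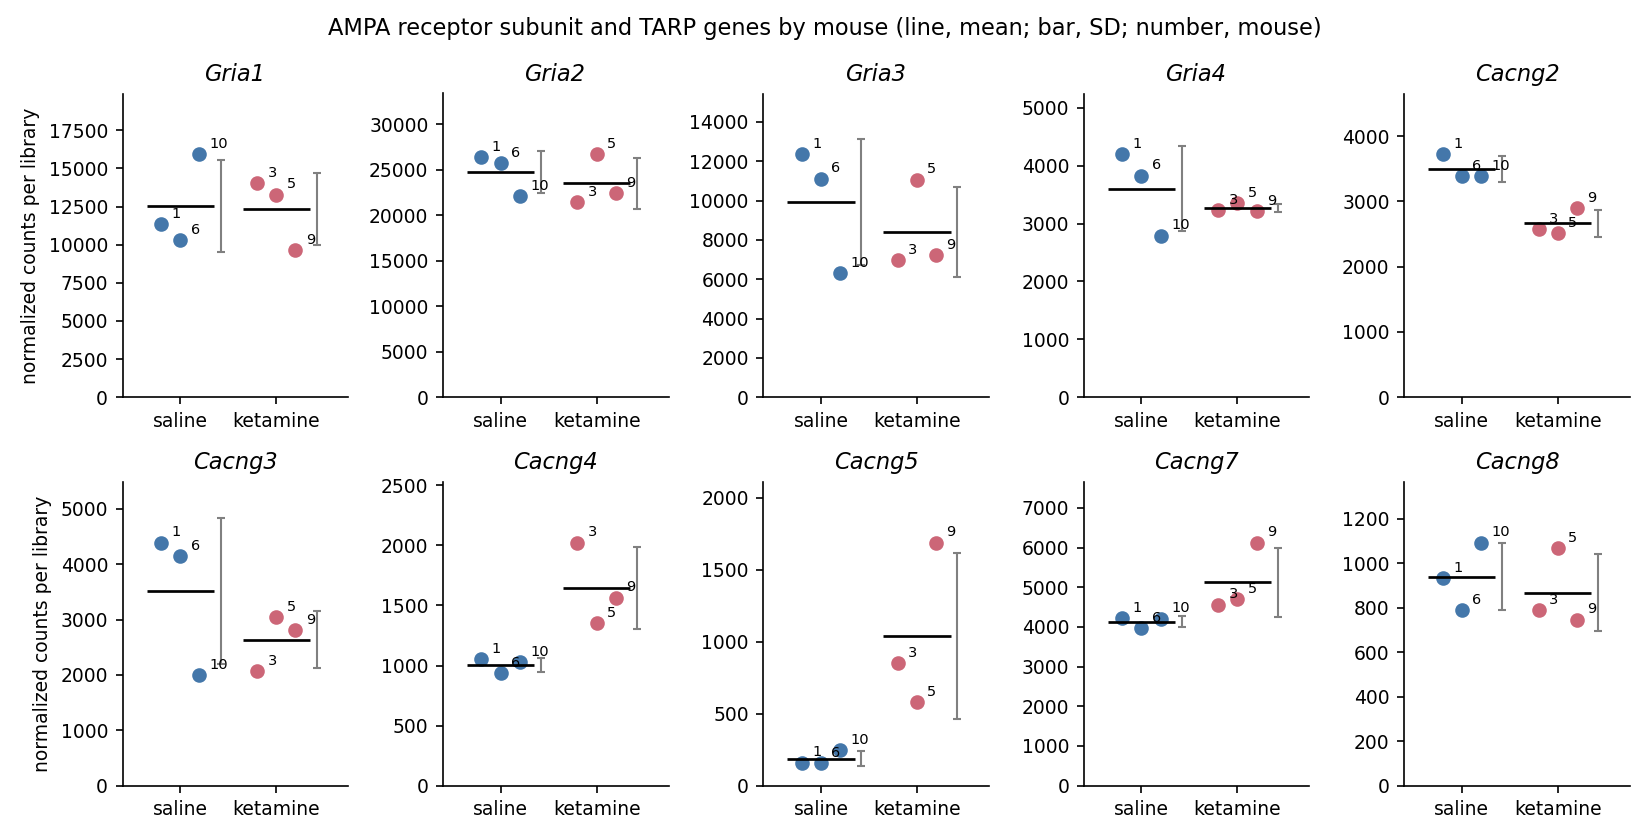
Each panel plots 1 gene, with normalized counts per library on the vertical axis from 0, points for the 3 saline mice (blue) and the 3 ketamine mice (red) labelled by mouse number, a line at the mean and a bar for the SD. The groups overlap in Gria1 to Gria4, Cacng3 and Cacng8 and are apart in Cacng2, Cacng4, Cacng5 and Cacng7, with Cacng5 spanning 155 to 248 normalized counts for saline and 582 to 1689 for ketamine.

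The makeup of the receptor genes was compared by shares and ratios within a library, in which the size factor cancels. Levels were taken per kilobase of exon, which removes the length of each gene, except in the ratio of Gria1 to Gria2. GluA2 made up 49.9%, 51.8% and 46.0% of the 4 subunits in saline mice 1, 6 and 10 against 46.5%, 49.9% and 53.1% in ketamine mice 3, 5 and 9. The groups overlapped (exact permutation test, two-sided, p = 0.8), and the means of 49.25% ± 2.94 and 49.86% ± 3.31 (SD, n = 3 mice each) differed by less than the spread between mice. The log2 ratio of Gria1 to Gria2 counts was -1.002 ± 0.463 in saline mice and -0.95 ± 0.308 in ketamine mice (exact permutation test, two-sided, p = 0.9). Within the saline group this ratio was -0.47 in mouse 10 against -1.22 and -1.32 in mice 1 and 6. The log2 ratio of the summed TARPs to the summed subunits, per kilobase, was -0.14 ± 0.0892 in saline mice and -0.05 ± 0.244 in ketamine mice (exact permutation test, two-sided, p = 0.8), with ketamine mouse 9 highest at 0.24.

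Within the TARPs the groups were apart in the shares of Cacng2, Cacng4 and Cacng5. Cacng5 made up 0.583%, 0.612% and 1.11% of the TARP level per kilobase in saline mice 1, 6 and 10 against 3.79%, 2.26% and 6.17% in ketamine mice 3, 5 and 9. The share of Cacng4 was 4.10%, 3.96% and 4.93% after saline and 9.65%, 5.63% and 6.13% after ketamine. Cacng2 went the other way, at 9.38%, 9.27% and 10.6% after saline and 7.96%, 6.81% and 7.36% after ketamine. In the other TARPs the groups overlapped, with ketamine minus saline differences of -8.28 percentage points for Cacng3, 6.45 for Cacng7 and -1.93 for Cacng8 (exact permutation tests, two-sided, p = 0.4, 0.2 and 0.7). The type II genes together were 27.0%, 27.7% and 33.8% of the TARP level after saline and 38.9%, 33.9% and 44.9% after ketamine, a measure taken up after the values had been seen. Here the groups were apart by a narrow margin, as saline mouse 10 nearly reached ketamine mouse 5. An exact permutation test cannot go below p = 0.1 with 3 mice against 3, and gave that value for the type II share and for those of Cacng2, Cacng4 and Cacng5.

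**Figure D2:**
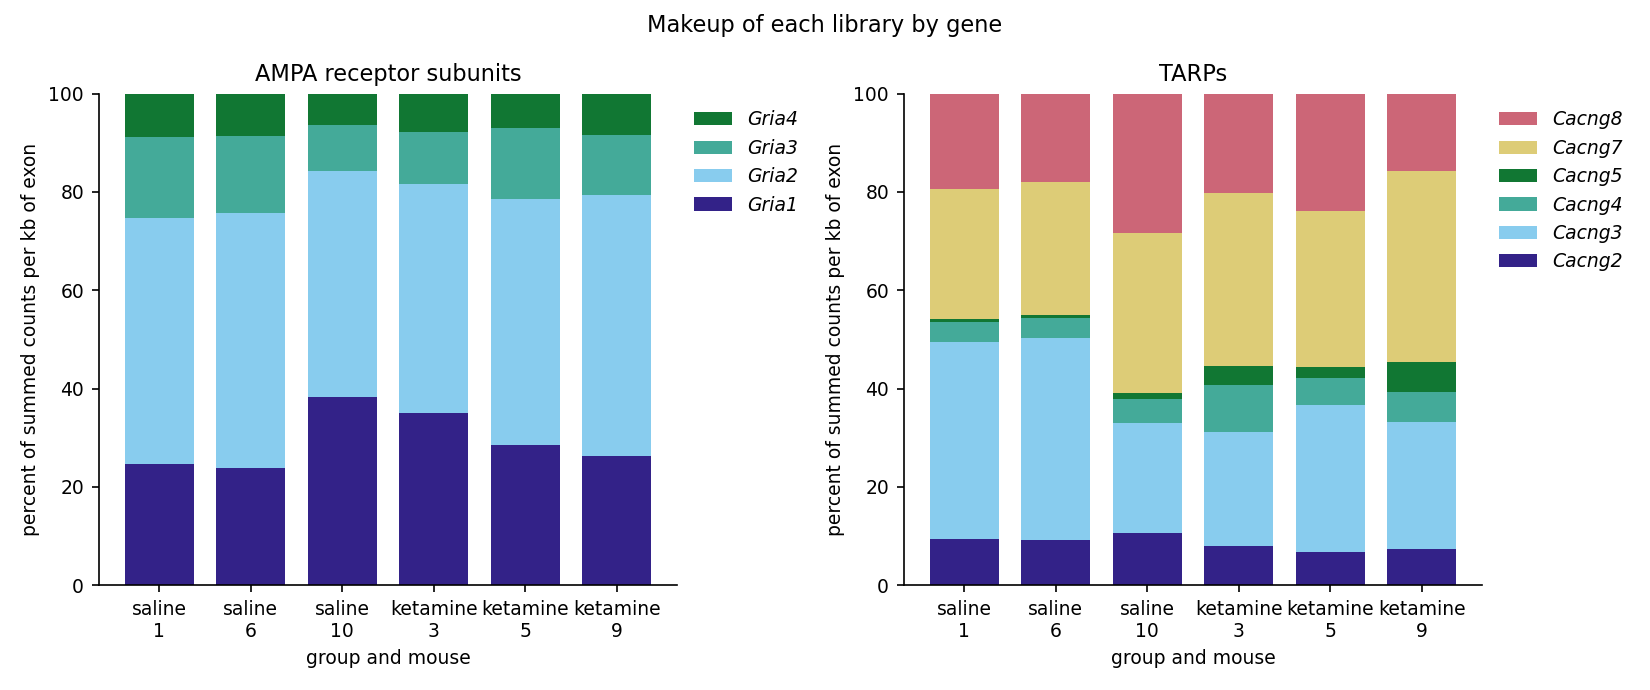
Stacked bars give each gene's percent of the summed normalized counts per kilobase of exon in each of the 6 libraries, for the 4 AMPA receptor subunits on the left and the 6 TARPs on the right, both axes running from 0 to 100. Gria2 fills 46.0% to 53.1% of the subunit bar in every mouse, and the Cacng5 segment takes 0.583% to 1.11% of the TARP bar for saline and 2.26% to 6.17% for ketamine.

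Ordered by level per kilobase of exon, saline mice had Gria2 first at 3555 ± 333 normalized counts per kilobase, followed by Cacng3 (2304 ± 866), Gria1 (2073 ± 496), Cacng7 (1867 ± 63.3), Cacng8 (1415 ± 227), Gria3 (1008 ± 323), Cacng2 (635 ± 35.3), Gria4 (575 ± 116), Cacng4 (281 ± 17.0) and Cacng5 (49.1 ± 13.6; SD, n = 3 mice). Gria2 stood clear of Cacng3, Cacng7 of Cacng8, Gria4 of Cacng4 and Cacng4 of Cacng5, while the ranges of all other neighbours in the order overlapped. In ketamine mice Gria2 was again first and Cacng5 last, with Cacng7 moved up to the place after Gria2 at 2317 ± 391 and Cacng3 down to the place after Gria1 at 1733 ± 334 normalized counts per kilobase. These moves are in the means only, as the ranges of Cacng7 and Gria1, and of Gria1 and Cacng3, overlapped in both groups. Cacng2, at 483 ± 37.1, and Cacng4, at 460 ± 95.8, overlapped in ketamine mice, and so did Cacng4 and Cacng5, at 271 ± 150. The gene model of Cacng8 holds only 663 bases of exon, so its level per kilobase and its place are less certain than the others. The sums and shares of TARPs per kilobase include it and carry the same limit. With Cacng8 left out, the groups were still apart in the shares of Cacng2, Cacng4 and Cacng5. In that of the type II genes together they were not. Saline mouse 10 then had Cacng7 at 45.55% and Cacng5 at 1.55%, against 41.54% and 2.97% in ketamine mouse 5.

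Cacng5, a type II TARP that changes receptor gating, had the largest difference of the 10 members. It was low in every saline mouse, at 161, 155 and 248 normalized counts, and stood at 852, 582 and 1689 in ketamine mice 3, 5 and 9. The lowest ketamine mouse was 2.35 times the highest saline mouse, and mouse 9 exceeded the sum of the other ketamine mice. The mean was 5.53-fold higher in ketamine mice, with a log2 fold change of 2.35 (standard error 0.391, 95% confidence interval 1.43 to 3.27). In limma the p was 0.000477 before and 0.226 after adjustment, rank 34 among all genes tested, so the difference did not pass the threshold. DESeq2 gave a log2 fold change of 2.47 with an adjusted p of 1.08e-06, and edgeR an adjusted p of 0.275. Leaving out single mice gave log2 fold changes from 1.93 to 2.70. Without ketamine mice 3 and 5 it was 3.19 (adjusted p = 0.0569, limma), and without saline mouse 10 and ketamine mouse 9 it was 2.15 with an adjusted p of 0.011 in limma, which called 3.64% of all genes in that fit and 0.0% in the former.

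Cacng7, the other type II TARP, lay in a narrow band after saline, at 4212, 3968 and 4208 normalized counts, and was at 4562, 4692 and 6120 after ketamine. All ketamine mice were above all saline mice, yet only mouse 9 was far above. Limma gave a log2 fold change of 0.30 with a standard error of 0.150 and an adjusted p of 0.945. The difference was 0.16 without ketamine mouse 9 and 0.57 without ketamine mice 3 and 5.

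Among the type I TARPs, Cacng4, known from the developing brain and from glial cells, was at 1055, 938 and 1026 normalized counts after saline and at 2022, 1352 and 1565 after ketamine. The saline mice lay within a tight range, and the lowest ketamine mouse was 1.28 times the highest of them. The log2 fold change was 0.69 (standard error 0.171, 95% confidence interval 0.29 to 1.09), and limma's p was 0.00464 before and 0.441 after adjustment. DESeq2 placed it just inside the threshold at an adjusted p of 0.0499, while that of edgeR was 0.428. Leaving out single mice gave differences from 0.53 to 0.82.

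Cacng2 encodes stargazin, the founding TARP. It had 3721, 3383 and 3387 normalized counts after saline and 2571, 2518 and 2896 after ketamine. Every ketamine mouse was below every saline mouse, with mouse 9 the nearest to them. The log2 fold change was -0.39 (standard error 0.122, 95% confidence interval -0.68 to -0.11). The p in limma was 0.0137 before and 0.655 after adjustment, and DESeq2 gave an adjusted p of 0.219. Cacng2 shares 323 exon bases with RP23-385C21.2, a transcript on the other strand that had a mean of 56.0 normalized counts. The strand setting of the counting is not given in the sources used here, so reads of the pair may have been mixed.

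Cacng3, a TARP of cortical neurons, was at 4388, 4147 and 1992 normalized counts after saline and at 2067, 3043 and 2806 after ketamine. Saline mouse 10 was the lowest of the 6, below every ketamine mouse, whereas the other saline mice were above them all. The log2 fold change of -0.35 had a 95% confidence interval from -1.10 to 0.41 and was -0.71 without saline mouse 10. Cacng8, the TARP best known from the hippocampus, was at 932, 790 and 1092 normalized counts after saline and at 789, 1066 and 746 after ketamine. The groups overlapped through almost their whole range, and the log2 fold change of -0.12 (95% confidence interval -0.57 to 0.33) turned to 0.10 without saline mouse 10 and ketamine mouse 9. These were the highest saline and the lowest ketamine mouse for Cacng8, so leaving them out was bound to raise the difference.

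**Figure D3:**
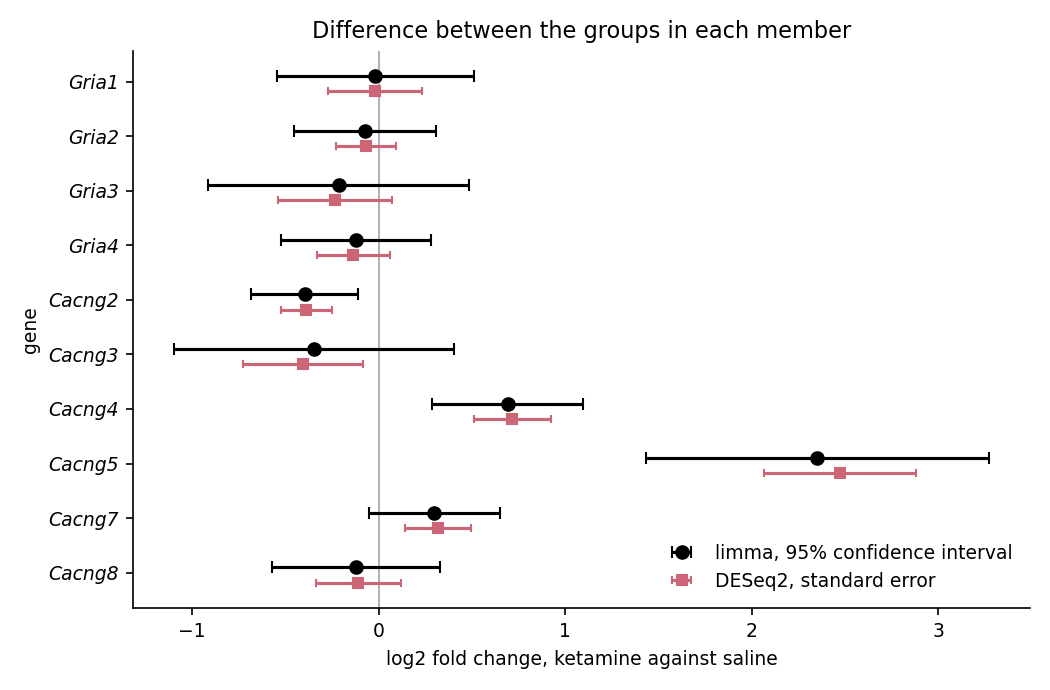
Points give the log2 fold change of ketamine against saline for each of the 10 genes, in limma (black circles, bars for the 95% confidence interval) and in DESeq2 (red squares, bars for the standard error). The limma interval lies wholly above 0 for Cacng5 (1.43 to 3.27) and Cacng4 (0.29 to 1.09), wholly below 0 for Cacng2 (-0.68 to -0.11), and spans 0 for the other genes.

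Ratios within a library do not depend on the scaling between libraries, and those between TARPs that went opposite ways were taken up after the values had been seen. Cacng2 outnumbered Cacng5 by 23.1, 21.8 and 13.7 to 1 in normalized counts in saline mice 1, 6 and 10, a lead that was 3.02, 4.33 and 1.72 to 1 in ketamine mice 3, 5 and 9. Cacng7 outnumbered Cacng2 by 1.13, 1.17 and 1.24 to 1 after saline and by 1.77, 1.86 and 2.11 to 1 after ketamine. In both ratios the groups were well apart, and the saline group varied little in the second of them. The values are counts per gene, so they compare mice and not the levels of the paired genes.

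Of the 6 TARP genes, 4 lie in neighbouring pairs. Cacng5, which spans 107735919 to 107776369 on chromosome 11 of mm9 and is read from the minus strand, is 80047 bases from Cacng4, on the same strand from 107593671 to 107655871. The genes on either side, Helz and Prkca, had log2 fold changes of -0.04 and -0.12, with overlapping groups, and Cacng1, a skeletal muscle calcium channel subunit of the same cluster, had a mean of at most 2.62 normalized counts in either group. Cacng7, on the plus strand of chromosome 7 from 3333055 to 3367810, is 26756 bases from Cacng8. Helz, Prkca and Cacng1 were named for their position, outside the rule on named genes.

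The 250 bases before the start of transcription are shown for Cacng5, Cacng7 and Cacng2, members whose groups were apart. Cacng5 and Cacng7 were higher and Cacng2 was lower in ketamine mice. No window was found for Cacng4, whose groups were also apart. The sequences are from RefSeq on GRCm38.p6 and are written in the direction of transcription. They lie at chr11:107915056-107915305 on the minus strand for Cacng5, chr7:3332575-3332824 on the plus strand for Cacng7 and chr15:78119281-78119530 on the minus strand for Cacng2. Capitals mark matches to GGGCGG, the Sp1 box, on either strand.
Cacng5: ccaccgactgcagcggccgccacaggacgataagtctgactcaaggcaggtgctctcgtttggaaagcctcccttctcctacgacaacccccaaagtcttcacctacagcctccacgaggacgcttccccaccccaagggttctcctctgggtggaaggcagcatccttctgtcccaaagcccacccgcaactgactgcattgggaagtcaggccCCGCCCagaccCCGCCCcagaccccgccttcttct
Cacng7: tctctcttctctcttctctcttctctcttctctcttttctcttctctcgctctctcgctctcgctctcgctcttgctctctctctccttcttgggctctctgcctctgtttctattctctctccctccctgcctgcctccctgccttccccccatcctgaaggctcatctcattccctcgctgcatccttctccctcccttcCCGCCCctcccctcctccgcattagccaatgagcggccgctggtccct
Cacng2: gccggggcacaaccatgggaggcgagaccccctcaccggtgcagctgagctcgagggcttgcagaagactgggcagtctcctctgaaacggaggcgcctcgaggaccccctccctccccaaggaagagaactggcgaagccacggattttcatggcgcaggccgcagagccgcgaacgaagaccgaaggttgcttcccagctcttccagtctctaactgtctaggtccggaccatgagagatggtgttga
The Sp1 box was found 2 times before Cacng5, at 35 and 24 bases before the start, once before Cacng7, at 48 bases, and 0 times before Cacng2. CCAAT, on either strand, was found once before Cacng5 and once before Cacng7 and 0 times before Cacng2. The E-box CANNTG was found 2 times before Cacng5, 0 times before Cacng7 and once before Cacng2. Neither TGACGTCA nor TATAAA occurred in the 3 windows. Of the 32851 windows of the same length in the table, 32.7% held GGGCGG, 33.8% CCAAT, 66.2% CANNTG, 1.5% TGACGTCA and 12.4% TATAAA. A match is a run of letters and was not tested as a site. A second start of Cacng5 is annotated, and its window held 0 Sp1 boxes. Among members with overlapping groups, Gria2, Gria4, Cacng3 and Cacng8 also had windows. The Sp1 box was found 0 times in each of these. CCAAT was found 2 times before Gria4 and 0 times before Gria2, Cacng3 and Cacng8.

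The level of Cacng5 was set beside the marker lists of the libraries. As a log2 level against the saline mean, Cacng5 was at -0.19, -0.24 and 0.43 in saline mice 1, 6 and 10 and reached 2.21, 1.66 and 3.19 in ketamine mice 3, 5 and 9. The mean of 10 olfactory bulb markers was at -0.41, -0.04 and 0.45 in the same saline mice and at 2.23, 1.91 and 4.38 in the same ketamine mice. Mouse 9 was highest on both, then mice 3, 5 and 10 in that order. None of the 10 markers was at 0 in a library, and their summed level was 3384 to 3909 normalized counts in saline mice and 6718 to 17661 in ketamine mice. The mean of 15 striatal markers was at 3.31, 2.26 and -0.02 in ketamine mice 3, 5 and 9, with summed levels of 13781 to 69356 normalized counts against 12972 to 15169 in saline mice. Ketamine mouse 9, the highest for Cacng5, was thus within the saline range for the striatal list, in which 5 markers had every ketamine mouse above every saline mouse and Isl1 was at 0 in a library. Cacng4 followed another order, with mouse 3 highest at 1.01, mouse 9 at 0.64 and mouse 5 at 0.43. The part of olfactory bulb or striatal tissue in the levels of Cacng5, Cacng4 and Cacng7 was not tested.

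Gria2, Gria3, Gria4 and Cacng3, in which the groups overlapped, had the order of a marker list in part. The mean of 10 cortical excitatory neuron markers was at 0.18, 0.09 and -0.27 in saline mice 1, 6 and 10 but -0.87, -0.18 and -0.61 in ketamine mice 3, 5 and 9, as log2 levels against the saline mean. Mice 10, 3 and 9 were the lowest of the 6 on this list, and the same 3 mice were the lowest for Gria2, Gria3, Gria4 and Cacng3. The other members did not have these 3 mice lowest, and among them Gria1 and Cacng8 were highest in saline mouse 10. The summed level of the list was 48413 to 70341 normalized counts in saline mice and 31492 to 55593 in ketamine mice, none of its markers was at 0 in a library, and 2 of 10 had every ketamine mouse below every saline mouse. The 5 oligodendrocyte markers were at -0.81, -1.17 and 1.98 in saline mice and at 0.72, 0.10 and 0.23 in ketamine mice, with overlapping groups, and none was at 0. Lists of PV interneurons, astrocytes, oligodendrocyte precursors and microglia had means between -0.52 and 0.49 in every mouse. Of the 8 PV interneuron markers, 3 had every ketamine mouse below every saline mouse, among them Pvalb, at 516 to 670 normalized counts against 893 to 2261. Tac1, named after its values were seen, had every ketamine mouse above, at 644 to 3260 normalized counts against 297 to 377, and the groups overlapped in the other 4. The part of the makeup of cells in the levels of Gria2, Gria3, Gria4 and Cacng3 was not tested.

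**Figure D4:**
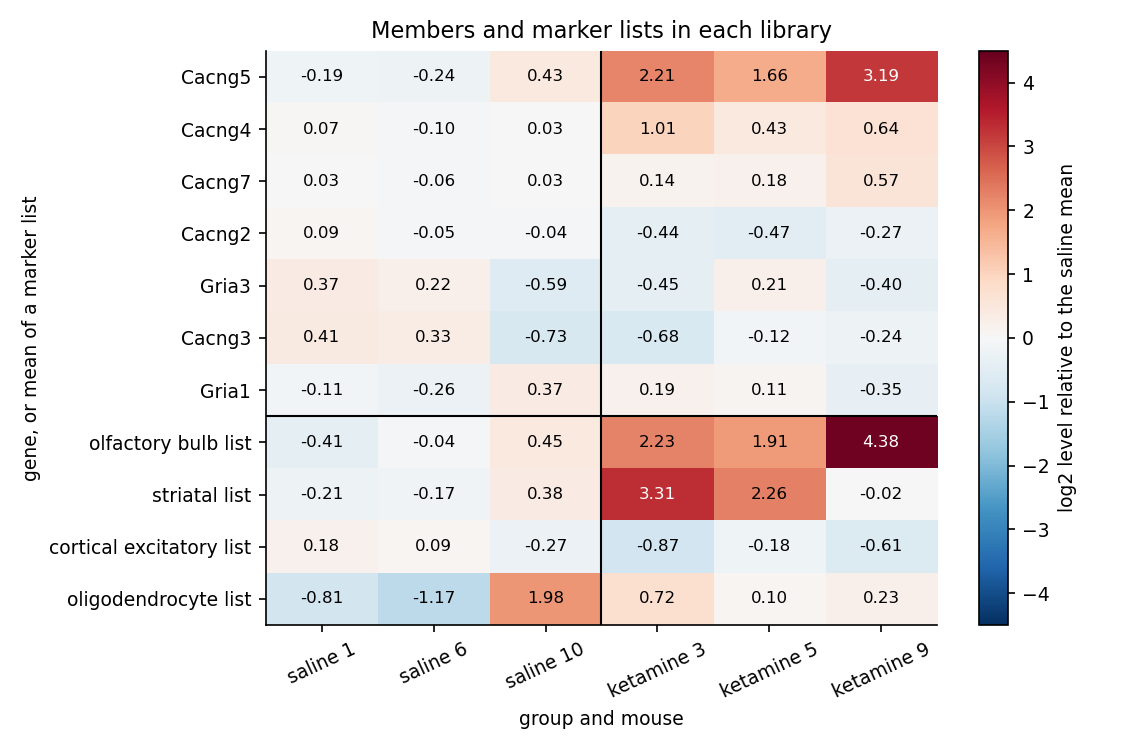
Each cell gives the log2 level of a gene, or the mean over a marker list, in 1 library relative to the mean of the 3 saline libraries, with blue below and red above it. Cacng5 and the olfactory bulb list are highest in ketamine mouse 9 (3.19 and 4.38), and the striatal list is high in ketamine mice 3 and 5 only (3.31 and 2.26). Gria3 is below 0 in saline mouse 10 and in ketamine mice 3 and 9. Cacng3 and the excitatory list are below 0 in saline mouse 10 and in every ketamine mouse.

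The genes whose profile over the 6 libraries was nearest to that of Cacng5, by root mean square distance of centred log2 levels, were Sp9 (0.0988), Pbx3 (0.174) and Pcp4l1 (0.235), out of 12412 other genes that averaged 100 normalized counts or more, whose median distance was 1.301. Sp9, a zinc finger transcription factor, had 103, 98.4 and 167 normalized counts in saline mice 1, 6 and 10 against 472, 341 and 978 in ketamine mice 3, 5 and 9. Pbx3, a homeodomain transcription factor, had 198, 174 and 393 after saline and 1215, 708 and 2456 after ketamine. Pcp4l1 had 1386, 1236 and 2235 after saline and 6772, 5137 and 9372 after ketamine. All of them kept the order of Cacng5 within the ketamine group, with mouse 9 first and mouse 5 last, and had saline mouse 10 as the highest of its group. Their log2 fold changes of 2.17, 2.42 and 2.14 were a consequence of the choice by profile and are given as a description.

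Of 19 auxiliary and assembly genes of the receptor tested, 2 had a positive and 17 a negative log2 fold change, with a median of -0.15. Over all genes tested 46.95% were positive, and of the 10 excitatory neuron markers 1 was positive and 9 were negative, with a median of -0.54. The part of the makeup of cells in the receptor lists was not tested. The median of the auxiliary genes was between -0.16 and -0.12 under the other scalings, -0.26 without saline mouse 10, -0.24 without ketamine mouse 5, -0.24 without saline mouse 10 and ketamine mouse 9 and -0.33 without ketamine mice 3 and 5, with 1 to 4 positive genes over these fits. Limma, edgeR and DESeq2 each called 0 of them, and 3 had an unadjusted p under 0.05 in limma, all lower: Nrn1, Syndig1 and Frrs1l. Over all genes tested, 2.37% were lower at that threshold. Nrn1 encodes neuritin, a membrane-anchored growth protein found in receptor complexes, and was at 7643, 7305 and 5636 normalized counts after saline and at 2489, 3715 and 5144 after ketamine. The groups were apart, with ketamine mouse 9 close to saline mouse 10, and the log2 fold change was -0.91 (adjusted p = 0.628, limma). Syndig1, a synapse differentiation protein, had a log2 fold change of -0.36 with groups apart. Frrs1l, which acts in the assembly of the receptor before it leaves the endoplasmic reticulum, had -0.52, with ketamine mouse 5 above saline mouse 10. Abhd6, a hydrolase that limits receptor delivery, was the only other gene of the list with groups apart, at -0.22, and is named after its values were seen. Groups were apart in 10.3% of all genes tested, a share that also stands beside the lists below.

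The 24 trafficking, scaffold and kinase genes had 7 positive and 17 negative log2 fold changes, with a median of -0.11, and limma, edgeR and DESeq2 called 0. Single mice moved this median: it was -0.034 without saline mouse 1, -0.19 without saline mouse 10, -0.017 without ketamine mouse 9, where 11 genes were positive and 13 negative, and -0.32 without ketamine mice 3 and 5. Grip2, a PDZ scaffold of GluA2, was at 743, 727 and 670 normalized counts after saline and at 870, 877 and 960 after ketamine. These groups were apart, with a log2 fold change of 0.34 (unadjusted p = 0.0277, adjusted p = 0.776, limma). Camk2a, a kinase that phosphorylates receptor subunits and TARPs, had a log2 fold change of -0.60 with overlapping groups and was higher in ketamine mouse 5 than in the other ketamine mice. Besides Grip2, the groups were apart in Grip1 (0.34) and Iqsec1 (-0.45), both named after their values were seen.

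The 8 extracellular partners had 1 positive and 7 negative log2 fold changes, and their median of -0.51 was the lowest of the lists of receptor genes. It was -0.30 without saline mouse 6 and -0.25 without ketamine mouse 3. Limma, edgeR and DESeq2 called 0 of them. Nptx1, a secreted pentraxin that clusters AMPA receptors, was at 11138, 9944 and 12100 normalized counts after saline and at 5608, 8937 and 4574 after ketamine. The groups were apart, with a log2 fold change of -0.85 (unadjusted p = 0.0109, adjusted p = 0.617, limma). Lrrtm4 (0.28) and Lrrtm1 (-0.19), leucine-rich synaptic adhesion proteins, also had groups apart and went opposite ways.

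The 3 RNA editing enzymes had log2 fold changes of -0.14 for Adar, 0.09 for Adarb1 and 0.52 for Adarb2, and the 3 tests called 0 of them. Adarb1 encodes the enzyme that edits the Q/R site of Gria2, and its groups overlapped, at 5667 to 6633 normalized counts in saline mice and 4981 to 7520 in ketamine mice. Adarb2, a brain-specific relative with no known editing activity, was at 591, 555 and 717 normalized counts after saline and at 1025, 880 and 776 after ketamine. The groups were apart by a small step between saline mouse 10 and ketamine mouse 9 (unadjusted p = 0.0153, adjusted p = 0.677, limma).

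**Figure D5:**
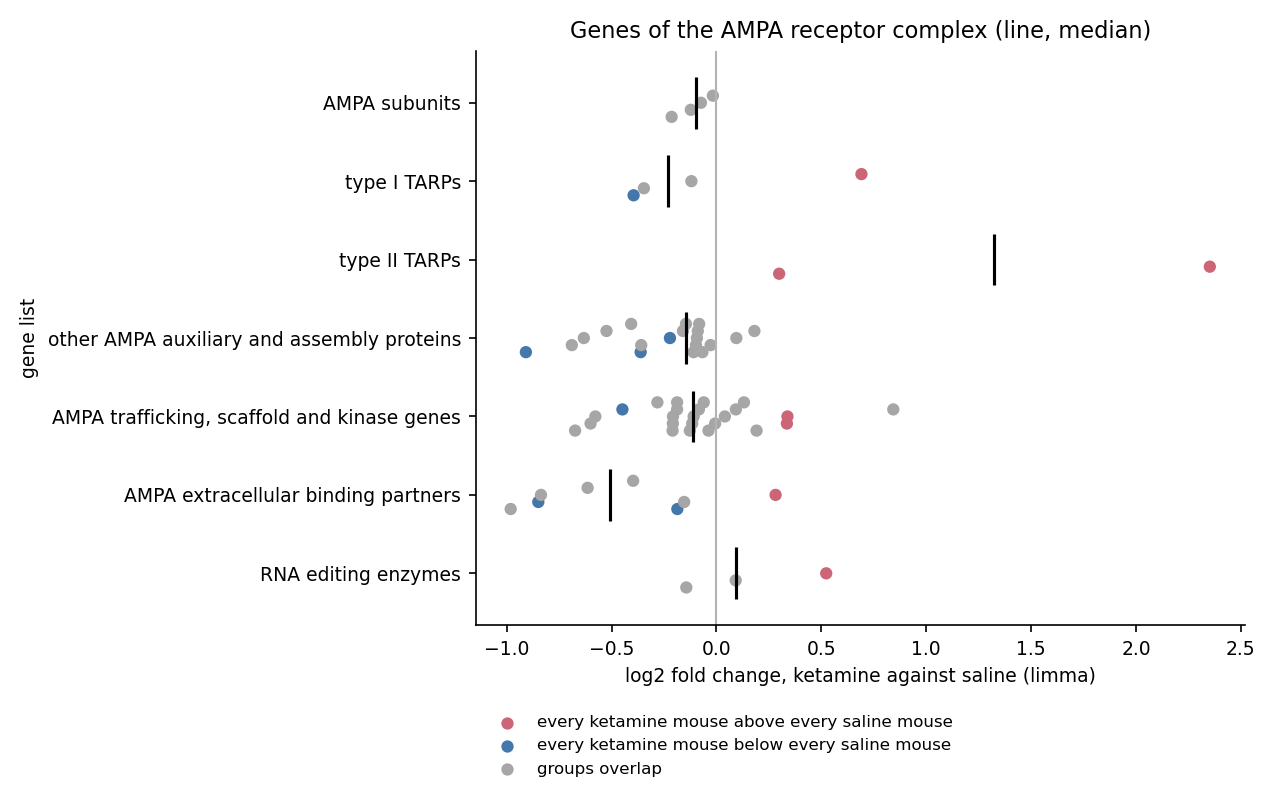
Each point is 1 gene, placed by its log2 fold change of ketamine against saline in limma and grouped by list, with a short line at the median of the list and a colour for groups that are apart (red, every ketamine mouse above; blue, every ketamine mouse below) or overlap (grey). The medians run from -0.51 for the extracellular partners to 1.33 for the type II TARPs, which hold 2 genes, and the 4 subunits lie between -0.21 and -0.02.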

How the data were processed

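RNA from the PLc of 6 mice was sequenced as paired-end reads. Alignment to mm9 with TopHat2 2.0.11, counting with HTSeq and testing with DESeq2 were done by the authors. What was deposited is a signal for each gene and mouse, the HTSeq count after division by the library's size factor. The annotation and strand setting of the counting are not given in the sources used here. Between 99.99% and 100.0% of values in a library were whole multiples of 1 step (within 0.0051 normalized counts), so reads were recovered, 26273436 to 32643726 per library. Each library is a separate mouse, and p-values describe these mice only. The variance in limma, edgeR and DESeq2 also draws on the spread of other genes.

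Log2(normalized count + 1) of the 16127 genes averaging 10 or more was compared with limma 3.58.1 (R 4.3.3, trended prior variance), two-sided and with Benjamini-Hochberg adjustment over all genes. A fold change on this scale understates that of low genes. EdgeR 4.0.16 and DESeq2 1.42.0 on recovered reads, other pseudocounts (0.1 and 5), filters (none and 100), scalings and left-out mice were alternatives. Single values were compared with exact two-sided permutation tests over mice. Exon lengths and positions are those of GENCODE on mm9, where 37205 of 37620 identifiers were found. Sequences before gene starts, found for 7 members, and synonyms for older symbols came from RefSeq on GRCm38.p6. Shisa8 was not matched. The values of 1 gene that the rule on named genes selects are not reported here.

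The members and gene lists were chosen with earlier results of these data known. The genes named are the 10 members, the 3 genes with the smallest limma p in each of the 4 other receptor lists, the 3 nearest profiles to Cacng5, which had both the smallest p and the largest difference of the members, and markers of the tissue (the 3 most abundant cortical markers, Drd1, Ppp1r1b, Pvalb, Eomes and Pdgfra, where needed).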

Additional observations from a re-analysis of the deposited data

How the results depend on the processing

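Cacng2, Cacng4, Cacng5 and Cacng7 kept the direction of their difference under all 18 alternatives each, as did Gria2, Gria3, Gria4 and Cacng3. Limma called 0 of the 10 members, and DESeq2 called 2, while 182 genes were called by DESeq2 over the whole table. Without saline mouse 10 and ketamine mouse 9, limma called 587 genes, 1 of them a member (Cacng5) and 4 of them in the other receptor lists (Nrn1 at -1.30, Olfm2 at -0.80, Myo5b at 0.92 and Adarb2 at 0.73 on the log2 scale). With each mouse left out in turn it called between 0 and 1 genes over the table. The difference in Gria1 turned positive under upper-quartile scaling (0.012), without saline mouse 10 (0.17), without ketamine mouse 9 (0.15) and without both (0.34), and ranged from -0.15 to 0.17 with single mice left out. That of Cacng8 turned to 0.10 without those mice. The difference in the log2 ratio of Gria1 to Gria2, 0.06 in ketamine minus saline, ranged from -0.11 to 0.32 with single mice left out (-0.05 without saline mouse 1, -0.10 without saline mouse 6) and was -0.21 without ketamine mice 3 and 5 and 0.46 without saline mouse 10 and ketamine mouse 9. The GluA2 share differed by 0.610 percentage points, by -1.03 to 2.28 with single mice left out (-1.001 without saline mouse 10) by -2.64 without saline mouse 10 and ketamine mouse 9 and by 3.90 without ketamine mice 3 and 5. The log2 ratio of TARPs to subunits differed by 0.10, by -0.044 to 0.17 with single mice left out by -0.10 without saline mouse 10 and ketamine mouse 9 and by 0.38 without ketamine mice 3 and 5. The causes of these changes were not tested. Fits without ketamine mice 3 and 5 leave 1 ketamine mouse, which is assumed to vary like the saline mice. No paired analysis was possible because the mouse numbers differ between the groups.

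The smallest p of an exact permutation test is 0.1 with 3 mice against 3. Every member had 161 or more reads in every library. Intervals describe these mice only, and their width also draws on the spread of other genes.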

Other observations

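Some genes of the receptor lists had values far apart between mice of the same group, and the genes here were named after their values were seen. Shisa6, an auxiliary subunit that binds AMPA receptors at the synapse, was at 2085 normalized counts in saline mouse 10 and at 258 to 496 in the other 5 mice. C1ql2, a secreted protein of the C1q family, was at 861 normalized counts in the same mouse and at 11.6 to 98.9 in the others. Cnih3 and Gsg1l, auxiliary subunits with opposite effects on receptor gating, were both lowest in this mouse, at 1266 and 1401 normalized counts against 1631 to 3102 and 1948 to 3770 in the others. Arc, an activity-dependent gene whose product takes part in the removal of AMPA receptors from the surface, ranged from 803 to 6824 normalized counts among saline mice and from 2558 to 6371 among ketamine mice. Dlg2, a scaffold of the synapse, was at 1981 normalized counts in ketamine mouse 9 and at 6318 to 9640 in the other mice.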
